A study of Mus musculus with 2 samples.

Results

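Igfn1, Zmynd17, Dupd1 and Rrad are 4 genes of skeletal muscle that stood well below their control level in the muscle of calorie-restricted mice. They are 4 of 10543 genes with a single symbol in the table, and they were picked from it for a low ratio of the calorie restriction (CR) library to the control library among genes with a mean of 300 FPKM or more (fragments scaled by transcript length and by the mapped fragments of the library). The ratio therefore describes how they were chosen and is given with no test. Both libraries hold poly(A) RNA from thigh muscles of B6C3F1 hybrid mice aged 26 months. The control group had the control diet, and the CR group ate about 40% fewer calories for 25 months on a diet enriched so that protein, vitamins and minerals per body weight stayed near those of the controls. Each group is 1 library, so no difference has a replicate check, and how many mice stand behind a library was not given in the sources used here. Both samples are muscle, so these data cannot check whether any of the 4 genes is restricted to muscle. Acta1, skeletal actin, at 372424 FPKM in the control and 354522 under CR, marks both samples as muscle.

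The 4 genes act in different parts of the muscle fibre. Igfn1 encodes a large protein of immunoglobulin and fibronectin type III domains that is found at the Z-disc, where thin filaments are anchored, and that binds the protein KY. Zmynd17, now named Mss51, encodes a MYND zinc finger protein of fast muscle that is linked to mitochondria and to myostatin signalling. Dupd1 encodes a dual-specificity phosphatase, an enzyme class that removes phosphate from tyrosine and from serine or threonine, and Rrad encodes a small GTPase of the RGK family, which bind the beta subunits of L-type calcium channels and lower their current.

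RefSeq promoter windows were found for 3 of the 4 members, Igfn1, Zmynd17 (as Mss51) and Dupd1, and they are shown because all members were lower under CR and because the letters were not used to pick them. Each is the 250 bases before the start listed in build GRCm38.p6, on the minus strand, 5′ to 3′. The windows are chr1:136006343-136006592 for Igfn1, chr14:20496902-20497151 for Zmynd17 and chr14:21714577-21714826 for Dupd1. The RefSeq span of Igfn1 reaches further upstream than the start used here. Sequence from just after the start was found in a GENCODE M21 transcript of the gene for Zmynd17 and Dupd1 but not for Igfn1. Positions counted from the start are therefore less certain for Igfn1. Capitals mark E-box letters (CANNTG, the core bound by myogenic factors), the MEF2 consensus and the NFAT core GGAAA, or TTTCC where it lies on the other strand.
Igfn1: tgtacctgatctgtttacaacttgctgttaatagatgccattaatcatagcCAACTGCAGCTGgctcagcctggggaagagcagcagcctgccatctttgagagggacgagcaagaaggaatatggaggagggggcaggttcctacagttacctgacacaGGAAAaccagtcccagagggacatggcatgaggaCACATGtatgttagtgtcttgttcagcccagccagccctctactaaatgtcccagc
Zmynd17: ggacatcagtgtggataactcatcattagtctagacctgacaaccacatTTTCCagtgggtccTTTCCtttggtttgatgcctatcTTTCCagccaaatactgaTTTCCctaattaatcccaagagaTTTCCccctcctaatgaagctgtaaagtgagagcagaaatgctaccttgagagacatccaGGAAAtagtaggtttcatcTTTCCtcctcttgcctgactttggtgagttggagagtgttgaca
Dupd1: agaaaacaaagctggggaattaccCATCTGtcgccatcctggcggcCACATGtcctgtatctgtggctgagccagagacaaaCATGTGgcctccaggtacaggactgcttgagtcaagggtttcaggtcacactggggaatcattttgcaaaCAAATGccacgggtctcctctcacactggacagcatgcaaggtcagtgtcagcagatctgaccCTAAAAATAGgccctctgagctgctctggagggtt

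None of the motifs searched was in all 3 windows. Dupd1 held 4 E-boxes and 1 MEF2 match, CTAAAAATAG, which begins 35 bases before the start. Of 32851 RefSeq windows of this length, 3.84% held 4 or more E-boxes and 2.92% held a MEF2 match; a MEF2 match was in 18.9%, and any E-box in 84.4%, of the 90 windows of listed muscle-restricted genes, beside 66.2% of all windows for any E-box. Igfn1 held 3 E-boxes, a count reached by 12.2% of windows, and its first and second lie side by side, from 199 bases before the start, as CAACTG and CAGCTG. The letters CAGCTG, which are also counted as an E-box, occur in 13.0% of all windows and in 42.2% of those 90. Igfn1 also held the FoxO letters GTAAACA on the other strand (3.17% of all windows) and 1 GGAAA. Zmynd17 held no E-box, as did 33.8% of windows, and instead held GGAAA 7 times over both strands, a count reached by 3 of 32851 windows, of which it is 1. It also held 1 RUNX match (TGTGGT, 14.0% of windows). GGAAA in any number occurs in 55.6% of windows. The MCAT letters CATTCC (12.6% of windows) and the CArG box (1.47%) were in none of the 3 windows. Motifs were searched on both strands, and a match describes letters and not a bound site.

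Values are FPKM after an offset of 1 was removed, and a log2 ratio sets CR against control after 1 FPKM is added to both, so that a negative ratio is a lower level under CR. Igfn1 (mm9 chromosome 1, 137849007 to 137902919, minus strand) was listed at 1397.6 FPKM in the control and 205 FPKM under CR. Its log2 ratio of -2.76 is a level 6.77-fold below the control, the largest fold of the 4. Zmynd17 (chromosome 14, 21302084 to 21316124, minus strand) was the most abundant of the 4, at 2271 FPKM in the control and 384 FPKM under CR. Its log2 ratio was -2.56, 5.90-fold below the control. Dupd1 (chromosome 14, 22495794 to 22533887, minus strand) was listed at 901 FPKM in the control and 180 FPKM under CR. Its log2 ratio was -2.31, 4.97-fold below the control. Rrad (chromosome 8, 107151966 to 107155221, minus strand) was the least abundant, at 538 FPKM in the control and 91.8 FPKM under CR. Its log2 ratio was -2.54, 5.81-fold below the control. In bulk muscle, fewer fibres that carry a transcript and less of it per fibre cannot be told apart.

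The order of levels was the same in both libraries, with Zmynd17 above Igfn1, then Dupd1, then Rrad. The highest level was 4.22 times the lowest in the control and 4.18 times the lowest under CR, and the largest fold was 1.36 times the smallest. Picking genes for low ratios keeps their folds close together. The spread of folds, and the likeness of the spread of levels in both libraries, therefore describe the choice. How far the levels lie apart was not set by it, beyond the mean of 300 FPKM or more. Igfn1 and Dupd1 came closest to each other in the CR library, where Dupd1 stood at 0.878 of the level of Igfn1, against 0.645 in the control library. With 1 library a group there is no spread over samples to say which of these neighbours differ.

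**Figure D1:**
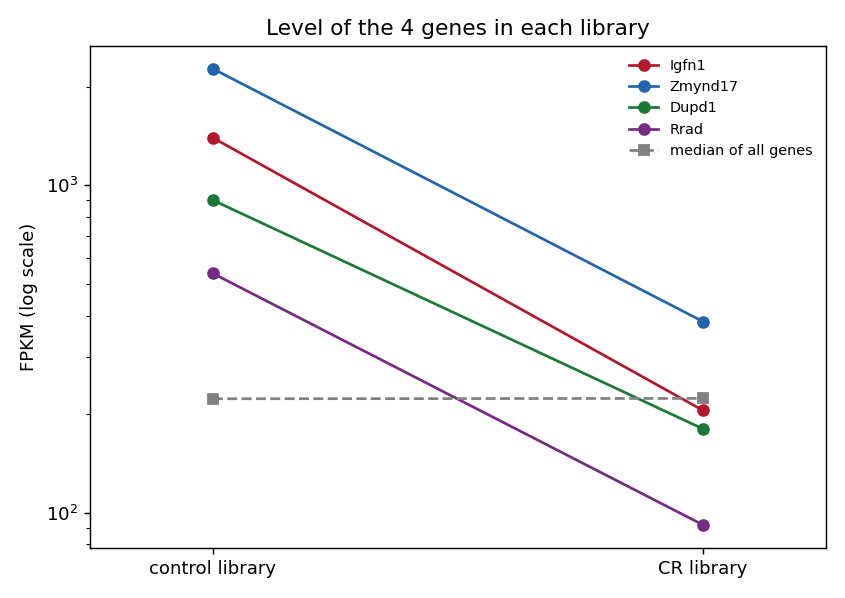
FPKM on a log axis for each of the 4 genes in the control and the CR library (1 library each, so there are no error bars), with the median over 10533 genes as a dashed line. The 4 lines fall side by side from 538 to 2271 FPKM in the control to between 91.8 and 384 under CR, while the median gene stays at 222.9 and 223.5.

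The median gene stood at 222.9 FPKM in the control and 223.5 under CR, and the median log2 ratio over the 10533 genes whose mean reached 1 FPKM was -0.03. In the control library Zmynd17 was 332nd from the top and Igfn1 575th, and they lay at 10.2 and 6.27 times the median gene. In the CR library Zmynd17 was 3201st from the top at 1.72 times the median, and the other members lay below the median gene, Igfn1 at 0.919, Dupd1 at 0.807 and Rrad at 0.411 times it. Genes 4-fold or more below the control made up 5.53% of the 10533 genes and 0.36% of the 4170 genes whose mean reached 300 FPKM. All 4 members are among the latter, which is how they were picked. Of the same 4170 genes 2.93% were past 2-fold on the lower side and 4.29% on the higher side. By rank of the log2 ratio among those 4170 genes, Igfn1, Zmynd17 and Rrad were 3rd, 4th and 5th from the lowest and Dupd1 was 11th. Gadd45a (-2.89), a stress gene induced by denervation, came just before Igfn1, and Krt18 (-2.52), a keratin, just after Rrad. Trp63 (-2.35), a p53 family factor, and Napb (-2.26), which acts in vesicle fusion, stood on either side of Dupd1. At or under the ratio of Dupd1 there were 78 genes above 0 in both libraries, and 11 of them passed the mean of 300 FPKM. Rrad, with a mean of 315 FPKM, lay just inside that limit, and Dhx37 (mean 293, log2 ratio -3.56), Sh3d19 (289, -2.32) and Wdr67 (287, -2.70) lay just outside.

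**Figure D2:**
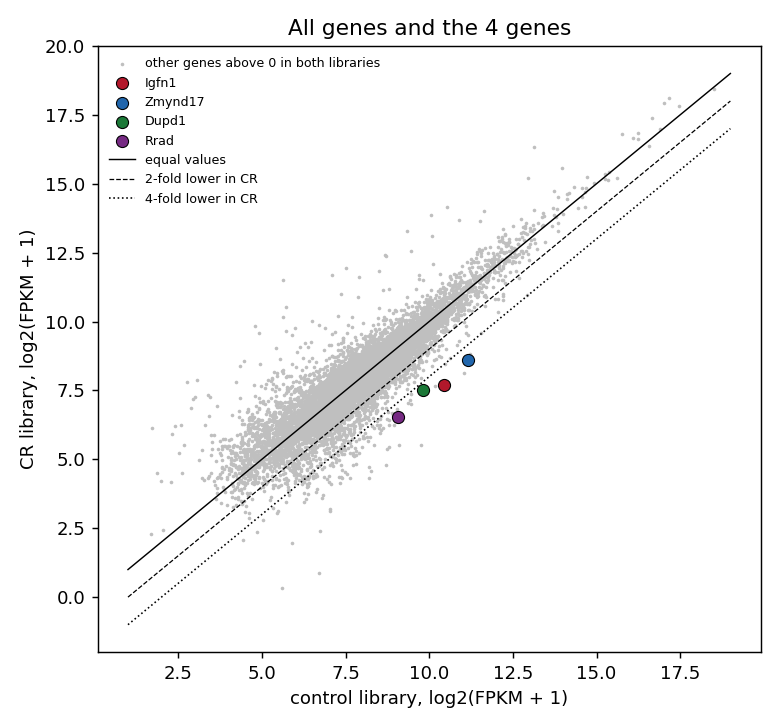
Each point is a gene above 0 in both libraries, with log2(FPKM + 1) in the control library across and in the CR library up; the lines mark equal values, 2-fold lower and 4-fold lower in CR. The 4 coloured members lie under the 4-fold line, at log2 ratios from -2.76 (Igfn1) to -2.31 (Dupd1).

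The genes most like each member were taken by distance between points in the plane of log2(FPKM + 1) in the control and CR libraries, a likeness over 2 libraries only, among 9819 genes without predicted genes. Igfn1 lay nearest to Krt18 (distance 0.27), Dupd1 (0.66) and Gadd45a (0.73). Zmynd17 lay nearest to Cpne2 (0.19), a calcium-dependent membrane-binding protein, Ankrd1 (0.24), a titin-associated ankyrin repeat protein, and Gadd45a (0.47). Dupd1 lay nearest to the cell cycle inhibitor Cdkn1a (0.38), Krt18 (0.39) and Ranbp10 (0.41), and Rrad to Sh3d19 (0.17), the histone deacetylase Hdac4 (0.25) and Zfp704 (0.29). This distance uses the values that picked the members, so genes near them are low under CR as well.

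The positions of the members were not used to pick them. Zmynd17 and Dupd1 lie on chromosome 14, 1179669 bp apart, and the others on chromosomes 1 and 8. No other locus of the table overlapped a member, on either strand, and no unnamed locus lay within 10 kb of one, so the table shows no overlap that could mix their reads, although the library kit as described does not mark strand. Of 45 named genes within 500 kb of a member, 6 were past 2-fold on the lower side, against a background of 10.7% of all genes, 1 was past it on the higher side (background 8.01%) and 38 were within it. The median over these neighbours was -0.10 on the log2 scale.

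Igfn1 sits in a stretch of chromosome 1 with other muscle genes. Of 9 named genes within 500 kb 2 were past 2-fold on the lower side, Tnnt2 and Phlda3 (992 and 467 FPKM, log2 ratio -1.08), 1 was past it on the higher side and 6 were within it. Tnni1, slow troponin I, whose nearest end is 141440 bp away, stood at 408 and 5479.8 FPKM in the control and CR libraries, a 13.4-fold higher level under CR. Tnnt2, cardiac troponin T and the nearest named gene on that side, stood at 139 and 67.1 FPKM, a log2 ratio of -1.04. On the other side Tmem9, a lysosomal membrane protein 1876 bp away, stood at 115.2 and 114.8 FPKM. Cacna1s, the pore subunit of the muscle L-type calcium channel 46405 bp away, stood at 3982 and 3540 FPKM. The nearest genes on each side of Igfn1 thus had log2 ratios of -1.04 and 0.00, beside -2.76 for Igfn1.

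Zmynd17 lies between Anxa7 and Ppp3cb, on the same strand and with gaps of 2728 and 2411 bp. Anxa7, an annexin, stood at 824 and 580 FPKM (log2 ratio -0.51), and Ppp3cb, a catalytic subunit of calcineurin, the phosphatase that activates NFAT, at 1183 and 1179 FPKM (-0.01). Of 19 named genes within 500 kb of Zmynd17, 2 were past 2-fold on the lower side, the potassium channel gene Kcnk5 (110.2 and 11.1 FPKM) and 1810062O18Rik (21.8 and 7.60), and 17 were within it. The Z-disc genes Myoz1 (7399 and 9490 FPKM) and Synpo2l (942 and 852) are in this stretch and lay within 2-fold.

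Dupd1 lies 18730 bp from Dusp13, a related dual-specificity phosphatase gene of muscle and testis on the same strand. Dusp13 stood at 1951 and 1572 FPKM, a log2 ratio of -0.31 beside -2.31 for Dupd1. The locus of Samd8 overlaps that of Dusp13 on the opposite strand, so reads of that pair may be mixed wherever their exons overlap. On the other side Myst4, a histone acetyltransferase, stood at 330 and 308 FPKM, and all 7 named genes within 500 kb lay within 2-fold. Around Rrad, the nearest genes Pdp2, a pyruvate dehydrogenase phosphatase (26.3 and 18.8 FPKM), and Fam96b (330 and 289) lay within 2-fold. Of 10 genes there 2 were past 2-fold on the lower side, the carboxylesterase gene Ces2c (705 and 128 FPKM, 215746 bp away) and the carbonic anhydrase gene Car7, listed at 33.8 and 0 FPKM.

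**Figure D3:**
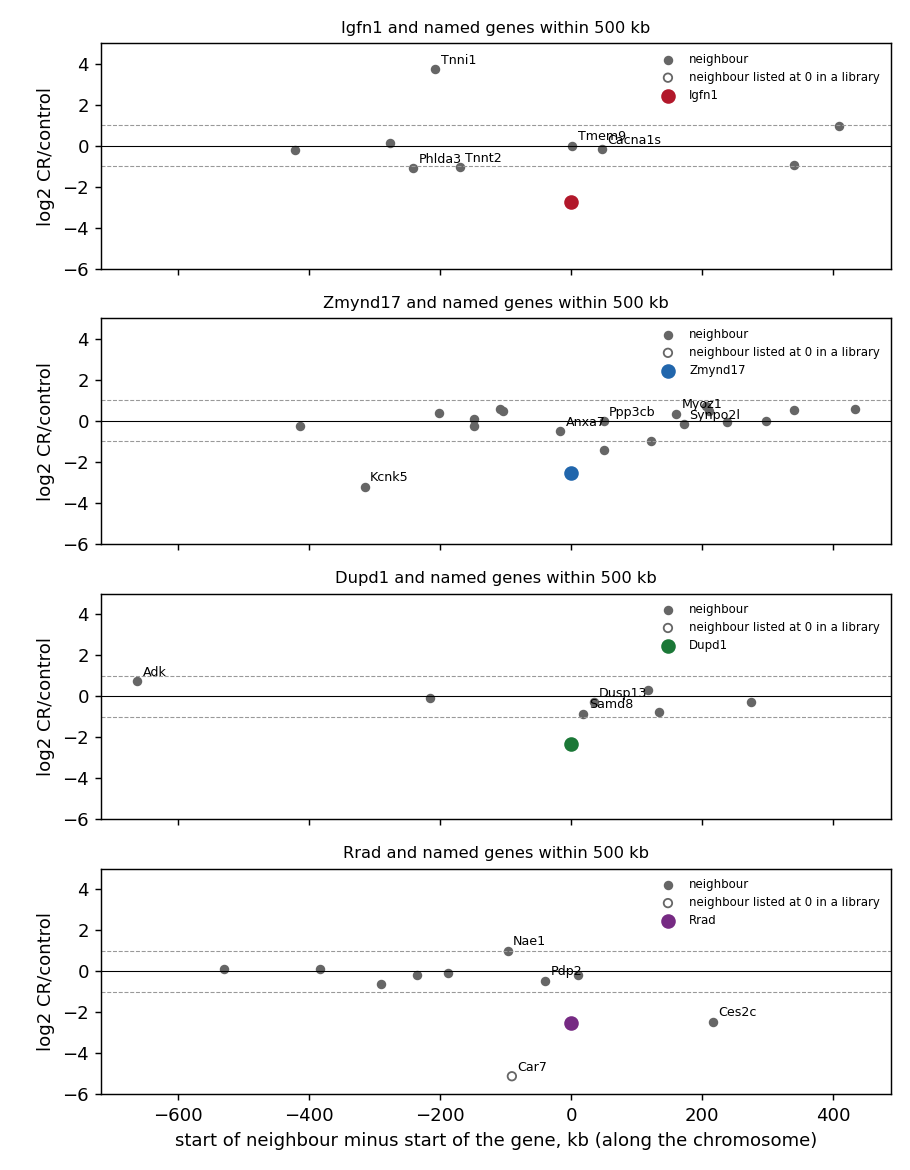
For each member, the log2 ratio of CR over control (up) of named genes whose locus lies within 500 kb, against the distance in kb between their start and the start of the member (across); dashed lines mark 2-fold, and open circles a gene listed at 0 in a library. The genes next to a member lie nearer 0 than it does, Tnni1 lies far above 0 beside Igfn1, and Kcnk5 (-3.20) lies below Zmynd17, and Ces2c (-2.46) just above the level of Rrad.

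The members also differ in structure. In GENCODE M21 the longest coding transcript of Igfn1 is 8989 bp in 27 exons, longer than that of 96.4% of measured genes with an annotated transcript. Those of Zmynd17 (1826 bp, 7 exons), Rrad (1577 bp, 5 exons) and Dupd1 (1138 bp, 4 exons) are shorter than the median of 3228 bp.

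Genes listed as muscle-restricted give the setting for these ratios. Of 110 such genes that were listed from general knowledge, 107 were measured without the members, and 11 (10.3%) of them were past 2-fold on the lower side, against 10.7% of all genes. None of the 107 was listed at 0 in a library, whereas the 10.7% includes such genes. Of the 1124 lower genes behind it, 674 remained without genes listed at 0 in a library. Among genes whose mean reached 300 FPKM, the range the members were picked from, it was 9 of 101 (8.91%), against 2.93% of all genes in that range. On the higher side 6 of the 107 (5.61%) were past 2-fold, against 8.01% of all genes. All 6 have a mean of at least 300 FPKM (5.94% of the 101, against 4.29%). The other 90 of the 107 were within 2-fold, and the median log2 ratio was -0.10, beside -0.03 for all genes. None of the 107 had a ratio as low as that of Dupd1, and the members had been picked for low ratios. The lowest was Chrnd, a subunit of the acetylcholine receptor, at 246 and 62.9 FPKM (log2 ratio -1.95), followed by the myogenic factor Myf6 at 1824 and 563 FPKM (-1.69). The largest ratio was that of A530098C11Rik, now named Mettl21c, a protein lysine methyltransferase, at 189 and 936 FPKM (2.30). Ttn and Neb, the giant sarcomere genes, were listed at 0 in both libraries, which can be a failed estimate.

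Genes listed for the denervation response, most but not all of which muscle raises when it loses its nerve, were lower for the most part. Of 23 measured, 17 (73.9%) were past 2-fold on the lower side, against the same 10.7%, 1 was past it on the higher side and 5 were within it. The list was drawn up with earlier results of these data known, so this share is a description of chosen genes and not a test. The median of the list was -1.45 on the log2 scale, or -1.31 without genes listed at 0 in a library. Runx1, a transcription factor, stood at 448 and 75.1 FPKM (-2.56), and Ankrd1 at 2361 and 450.1 FPKM (-2.39). Gadd45a stood at 2088 and 279.9 FPKM (-2.89), while Chrng, the fetal subunit of the acetylcholine receptor, was listed at 99.8 and 0. The most abundant gene on the list, the ubiquitin ligase Trim63, stood at 4762 and 1738 FPKM (-1.45). The 1 gene past 2-fold on the higher side was the deacetylase Hdac9, listed at 0 and 96.6 FPKM. Trim63, Fbxo32, Chrna1, Chrnb1, Chrnd and Chrne (164 and 134 FPKM) are on both this and the muscle-restricted list.

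**Figure D4:**
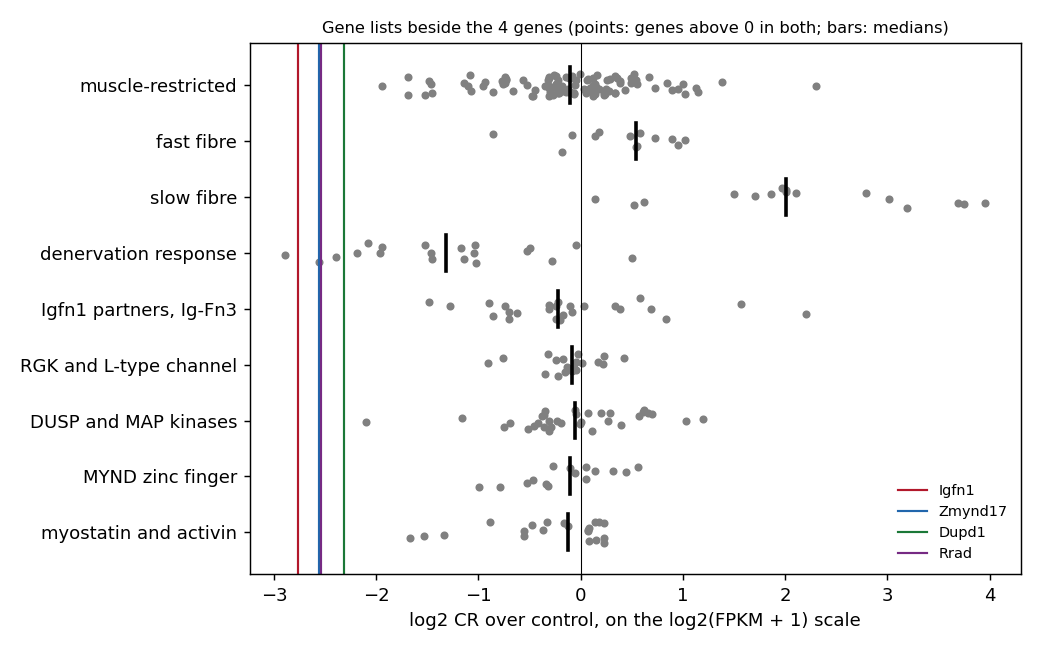
Log2 ratio of CR over control (across) for the genes of 9 lists above 0 in both libraries, a grey point for each gene and a black bar for the median of the points drawn; vertical coloured lines mark the 4 members. The members lie left of every muscle-restricted gene drawn and within the range of the denervation list.

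The genes listed for Igfn1 had shares of lower and higher genes near those over all genes when no limit of 300 FPKM was set. The list was drawn up for its partners and for immunoglobulin and fibronectin proteins of the sarcomere. It also holds genes outside that description, such as Mylk2 and Myl1. Of its 25 measured genes, 2 (8%) were lower and 2 (8%) higher by 2-fold or more, against 10.7% and 8.01% of all genes. The list had its median log2 ratio at -0.22. Flnc, the Z-disc crosslinker filamin C, stood at 4724 and 1947 FPKM (-1.28), and Xirp1, which binds actin and filamin C, at 1441 and 514 FPKM (-1.49). These are the 2 lower genes, and both pass a mean of 300 FPKM, a limit that takes the lower share over all genes to 2.93%. Nearly all measured genes of the list pass that limit, so there its lower share stood above that of all genes. Ky stood at 441 and 559 FPKM (0.34). Of the myosin binding proteins Mybph stood at 776 and 2302 FPKM (1.57) and Mybpc1 at 7872 and 6743 (-0.22), and Mybpc2, in a locus merged with other symbols, was not analysed here. Ccdc141 stood at 18.9 and 90.7 FPKM (2.20), and Myl1, the fast essential light chain and the most abundant of the list, at 77622 and 116056 (0.58).

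For Rrad the list holds RGK genes and those of the calcium channel that RGK proteins act on. Of 21 measured RGK and L-type channel genes, 1 (4.76%) was lower and 1 (4.76%) higher by 2-fold or more, not above the shares of 10.7% and 8.01% over all genes, and their median log2 ratio stood at -0.09. Cacng1, a gamma subunit, stood at 6222 and 3668 FPKM (-0.76), the calmodulin kinase Camk2b at 1706 and 912 (-0.90), and the calmodulin gene Calm2 at 1299 and 1745 (0.43). Ryr1, the calcium release channel and the most abundant, stood at 41978 and 36061 FPKM (-0.22). The genes past 2-fold were each listed at 0 in a library: Cacnb3, a beta subunit, at 19.9 and 0 FPKM, and Rem1, a relative of Rrad, at 0 and 81.4. Gem and Rem2, the other RGK genes, were not found under a single symbol, nor were the channel genes Cacna1c, Cacnb2, Cacnb4 and Cacna2d3.

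For Dupd1 the list holds its relatives, the dual-specificity phosphatases, and also genes of the MAP kinase pathway, which are not relatives. Of 34 dual-specificity phosphatase and MAP kinase genes, 3 (8.82%) were lower and 2 (5.88%) higher by 2-fold or more, against 10.7% and 8.01%, around a median log2 ratio of -0.13. These shares are for the mixed list with no limit of 300 FPKM. All the genes past 2-fold were phosphatases, so the shares among phosphatases alone are larger than those given. The muscle phosphatase Dusp27 stood at 504 and 405 FPKM (-0.31), close to the ratio of Dusp13. Dusp10, which acts on p38 and JNK, stood at 500.3 and 223 FPKM (-1.16) and Dusp4 at 81.4 and 18.3 (-2.10), and Dusp5 was listed at 12.5 and 0. Dusp14 stood at 33.8 and 79.0 FPKM, a fold of 2.30, and Dusp12 at 57.1 and 118, a fold of 2.05.

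Of 16 other MYND zinc finger genes 1 (6.25%) was lower by 2-fold or more, against 10.7% of all genes, and 15 were within 2-fold, around a median log2 ratio of -0.19. The muscle methyltransferase Smyd1 stood at 2113 and 2331 FPKM (0.14), and its relatives Smyd2, the most abundant, at 3202 and 3087 (-0.05) and Smyd3 at 153 and 76.1 (-0.99). The deubiquitinase Usp19 stood at 804 and 463 FPKM (-0.79) and Zmynd11 at 723 and 1063 (0.56). The gene past 2-fold was Runx1t1, listed at 95.2 and 0. Of 22 myostatin and activin signalling genes, 4 (18.2%) were lower and 0 higher by 2-fold or more, against 10.7% and 8.01% of all genes, around a median log2 ratio of -0.14. None of the 4 was among the 6 whose mean reached 300 FPKM. The inhibitory Smad7 stood at 185 and 57.4 FPKM (-1.67), Gdf11, a close relative of myostatin, at 71.7 and 24.2 (-1.53), and the antagonist follistatin, Fst, at 240.4 and 94.8 (-1.33). Fstl3, a second antagonist of this kind, was listed at 23.2 and 0. The receptors Acvr2b (105 and 55.9 FPKM, -0.89) and Acvr2a (527 and 472, -0.16) lay within 2-fold.

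Markers of fibre types and of other cells moved between the same libraries, and their part in the ratios of the members was not tested. The counts below stand beside 8.01% of all genes at least 2-fold higher and 10.7% lower. Of 16 slow fibre markers 13 were higher and 0 lower by 2-fold or more, and their summed level was 45294 FPKM in the control and 180019 under CR, led by Myh7 (8953 and 81978), Myl2 (644 and 10019), Tnni1 and Tnnc1 (414 and 5346). Of 13 fast fibre markers 1 was at least 2-fold higher, Tnni2 (56111 and 114033), and 0 lower, with Mylpf (146936 and 283395) and Tnnc2 (133102 and 246497) just within 2-fold and a summed level of 736386 and 1156750 FPKM. Lower within 2-fold were Mylk2 (4945 and 2722), Atp2a1 (96498 and 84736) and Actn3 (38928 and 36745). The fast myosin chains could not be compared, since Myh1 and Myh4 are in merged loci and Myh2 was listed at 0 in both libraries. Of 12 adipocyte markers 10 were higher and 0 lower (summed level 5394 and 20305 FPKM), among them Fabp4 (2948 and 12924), Retn (48.6 and 1148), Adipoq (153 and 1178) and Pparg (42.9 and 277), with Adrb3 at 0 in the control library.

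Of 8 tendon markers 5 were at least 2-fold lower and 0 higher (summed level 1881 and 1033 FPKM). Fmod stood at 844 and 373 FPKM, Comp at 154 and 55.5 and Thbs4 at 560 and 467, and Chad and Col12a1 were at 0 in the CR library. Of 3 keratinocyte markers found (summed level 716 and 173 FPKM), Trp63 (665 and 129 FPKM) and Perp (34.6 and 0) were lower and Krt10 (16.5 and 43.1) was higher, while Krt5, Krt14 and Krt1 were not found in the table, so their levels are not known. No marker was at least 2-fold lower among 9 fibroblast markers, of which 4 were higher (summed level 3891 and 6604 FPKM, with Dcn at 1902 and 3098, Lum at 128 and 570.2, Col1a1 at 245 and 564 and Col3a1 at 315 and 645). The same held for 10 endothelial markers, of which 2 were higher (2588 and 3352 summed, with Vwf at 472 and 506, Emcn at 200.4 and 486, Tek at 157 and 338 and Kdr at 170.5 and 336). It also held for 7 smooth muscle and pericyte markers, of which 3 were higher (2673 and 4011 summed, with Rgs5 at 726 and 1305, Myh11 at 171 and 463, Acta2 at 339 and 813 and Tagln at 209 and 458).

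The lists of 8 Schwann cell, 5 satellite cell, 4 macrophage and 3 erythroid markers had 1, 0, 0 and 0 genes lower and 1, 1, 2 and 1 higher by 2-fold or more. Their summed levels in the control and under CR were 919 and 1243 FPKM, 935 and 969 FPKM, 211 and 274 FPKM, and 18703 and 51220 FPKM, in that order. Among them stood Pmp22 (178 and 351 FPKM), Prx (56.9 and 92.7), Mbp (222 and 302), Itga7 (397 and 412), Chodl (139 and 275) and Cdh15 (363 and 231), with S100b and Vcam1 at 0 in the control library and Sox10 at 0 in the CR library. Csf1r stood at 79.2 and 102 FPKM, Mrc1 at 32.5 and 77.8 and Cd68 at 99.7 and 66.9, with Cd14 at 0 in the control library. Hba-a1, a globin gene whose near-identical copy makes its value uncertain, stood at 15925 and 48110 FPKM, Alas2 at 264 and 512 and Hbb-b2 at 2514 and 2598.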

How the data were processed

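Poly(A) RNA from the thigh muscles of 2 groups, 1 library each, was read as 76 bp pairs, per the labels. Reads were processed by the authors with TopHat 1.2.0, Cufflinks and Cuffdiff on build mm9, per the submitters' processing notes. Options, annotation and filters were not given in the sources used here. Values were deposited as FPKM per locus, per the file headers, with an offset of 1 inferred from the digits: 59 of 68 control values from 10 to 11 carry more than 6 significant digits and 0 of 73 from 11 to 12 do. The offset was subtracted. The columns sum to 12758512 and 13608849 FPKM, depth is unknown, and no counting interval can be given.

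Of 23672 loci, those with 1 symbol were kept and summed by symbol (234 merged loci were left out), giving 10543 genes. The log2 ratio of CR over control was taken with a pseudocount of 1 FPKM and no scaling; calls are ratios of at least 2-fold among genes whose mean reaches 1 FPKM. No test is possible. The 4 members and the 19 gene lists were chosen with earlier results of these data known; 304 of 343 listed genes were found, 2 of them through RefSeq synonyms, and members were left out of the lists. The text names the members, their neighbours in ratio, level and position, their relatives, and for each list its most abundant gene and up to 3 with the largest ratios (mean of at least 50 FPKM, above 0 in both libraries). Genes outside this rule, among them Car7, Kcnk5, Ces2c, Tnni1, Cacna1s, Myoz1, Synpo2l, Samd8, Dusp4, Phlda3, Mylk2, Atp2a1, Actn3, Chrne, Gdf11, the genes listed at 0 and Krt10, were named after their values were seen, and 1 listed gene is not reported here by name. Promoters are RefSeq windows of GRCm38.p6; transcript lengths and exon counts are from GENCODE M21, and no coordinate was moved between builds. Python 3.11.15, numpy 2.4.6, pandas 2.3.3 and matplotlib 3.10.9 were used, and the ratio script was tested on simulated data. Alternatives were pseudocounts of 0.1 and 5 FPKM, filters, 2 scalings and the largest locus of a symbol.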

Additional observations from a re-analysis of the deposited data

How the results depend on the processing

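The ratios of the members moved little under 5 alternatives each: from -2.83 to -2.73 for Igfn1, -2.63 to -2.53 for Zmynd17, -2.39 to -2.28 for Dupd1 and -2.61 to -2.49 for Rrad on the log2 scale. No member has more than 1 locus, so keeping the largest locus changed none of them. Of the counts over all genes, the 1124 at least 2-fold lower became 122 when the mean had to reach 300 FPKM and 674 without genes listed at 0 in a library, and the 844 higher became 179 with that filter at 300 FPKM; these settings test fewer genes. The 17 lower denervation genes became 8, of 10 left, with that filter. The muscle-restricted count of 11 stayed within 1.5 times in each setting, but the filter at 300 FPKM, which takes the share over all genes from 10.7% to 2.93%, left 9 of 101 (8.91%), so the list stood at the share of all genes without the filter and above it with the filter. For the 17 other lists, 137 of 153 counts stayed within 1.5 times, and 14 of the 16 that did not were smaller. No paired analysis was possible because each group has 1 library. Without replicates or known depth, neither biological spread nor counting error can be set beside any ratio here.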
